A study of Mus musculus with 2 samples.

Results

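The miR-29 family of the mouse comprises 4 microRNA genes, Mir29a, Mir29b-1, Mir29b-2 and Mir29c, which were taken by symbol from the 1973 gene rows of a microRNA sequencing experiment on embryonic limb. All 4 had a row in both libraries. The libraries were made from limbs of B6NCrl embryos at day 12.5 of development, with both sexes pooled and no treatment or genetic change named, from the RNA fraction below 30 nucleotides. The pool of replicate 1 held 88 embryos and that of replicate 2 held 68, and the tables assign 4525636 and 3604284 counts to microRNA genes. Both libraries belong to 1 group, so there is no contrast between conditions, and the design allows a description of the levels of the family and of the spread between the replicates. The limb microRNAs of the Hox clusters (Mir196b, Mir10a, Mir10b and Mir615), of cartilage (Mir140) and of skeletal muscle (Mir206) were all present. The lowest of these was Mir206 at 2347 ± 213 counts per 1000000 gene counts (SD, n = 2). Of other muscle microRNAs, Mir133b stood at 45.1 in the same unit, and the numbered copies Mir133a-1 and Mir133a-2 had 0 assigned counts. Reads that mapped to several places are not in these counts. Whether they held any reads of the Mir133a copies was not tested, so the 0 counts do not show absence.

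MicroRNAs of the miR-29 family bind messenger RNAs through the seed, the bases 2 to 8 from the 5′ end of the mature strand, and lower their translation and stability. The family is best known as a repressor of extracellular matrix genes, above all of fibrillar and basement membrane collagens and elastin, and of the DNA methyltransferases Dnmt3a and Dnmt3b. Loss of miR-29 accompanies fibrosis in several organs, and its levels rise after birth in several tissues. The embryonic limb at this stage is laying down cartilage matrix.

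The mature sequences decide which reads can be told apart within the family. The strands of the 3′ arm, which carry the family's seed, are shown 5′ to 3′ with the seed in capitals, from RefSeq on GRCm38.p6:
mmu-miR-29a-3p: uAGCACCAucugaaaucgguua
mmu-miR-29b-3p: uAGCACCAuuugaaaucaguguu
mmu-miR-29c-3p: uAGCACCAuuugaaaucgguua
The strands of the 5′ arm of the miR-29b copies are shown because they differ between the copies, again with bases 2 to 8 in capitals:
mmu-miR-29b-1-5p: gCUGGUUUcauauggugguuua
mmu-miR-29b-2-5p: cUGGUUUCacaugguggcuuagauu
The 3′ strands of all 4 genes share the seed, and no other gene among the 1738 mature entries compared had it. The miR-29a-3p and miR-29c-3p strands were identical at 21 of 22 positions and differed by C10U, counted from the 5′ end with the base of miR-29a first. From miR-29c-3p to miR-29b-3p there were 3 substitutions over 22 positions (G18A, U21G and A22U), so these strands share their first 17 bases. The miR-29b-3p strand of 23 bases is the same in Mir29b-1 and Mir29b-2, and a read of it has no single place in the genome.

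The genes lie in 2 clusters of 1 pair each, with coordinates on mm10. On chromosome 6, minus strand, Mir29a (ENSMUSG00000065610.1) spans 31062660 to 31062747 and Mir29b-1 (ENSMUSG00000065604.1) spans 31063023 to 31063093, with 275 bases between the hairpins. Mir29a overlaps no other annotated gene, and Mir29b-1 overlaps the long non-coding RNA Gm27019 by 2 bases. On chromosome 1, plus strand, Mir29b-2 (ENSMUSG00000065412.2) spans 195037040 to 195037120 and Mir29c (ENSMUSG00000065548.1) spans 195037547 to 195037634, with 426 bases between them. Both chromosome 1 hairpins lie wholly in an exon of 1 of the 4 transcripts of the non-coding gene A330023F24Rik, and opposite an exon of 1 of the 4 transcripts of Cd46, a complement regulator on the other strand. No microRNA gene of another family was annotated within 50000 bases of a member. The version numbers of both Mir29b identifiers in the tables are older than those of the annotation used here, so the counted intervals of these 2 genes may differ from the coordinates given.

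Mir29a and Mir29c were present at low levels, and the miR-29b copies gave almost no assignable reads. Levels are counts per 1000000 counts on microRNA genes (CPM), and a read covers a mature strand once, so they are not divided by gene length. Mir29c gave 200 counts in replicate 1 and 168 in replicate 2, which is 44.2 CPM (95% Clopper-Pearson interval 38.3 to 50.8) and 46.6 CPM (39.8 to 54.2), with a mean of 45.4 ± 1.7 CPM (SD, n = 2). The libraries gave the same level of Mir29c within their intervals. Mir29a gave 192 and 102 counts, which is 42.4 CPM (36.6 to 48.9) in replicate 1 and 28.3 CPM (23.1 to 34.4) in replicate 2, with a mean of 35.4 ± 9.99 CPM (SD, n = 2). For this gene replicate 1 was the higher library and the intervals did not overlap.

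The Mir29b-1 hairpin gave 3 counts in replicate 1 and 5 in replicate 2, which is 0.66 CPM (0.14 to 1.94) and 1.39 CPM (0.45 to 3.24). Mir29b-2 gave 3 counts and 1 count, which is 0.66 CPM (0.14 to 1.94) and 0.28 CPM (0.0070 to 1.55). A count of 0 allows up to 3 counts, which is 0.66 CPM in replicate 1 and 0.83 CPM in replicate 2, so 3 of these 4 values lay at or under that limit and the order of the copies was not resolved. Intervals and limits cover counting error only, since reads copied by PCR are not independent molecules. The tables do not name their strand columns, and the one with 97.6% and 97.4% of the gene counts in replicates 1 and 2 was taken as the gene's own strand. No member had a count in the other one in either library.

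**Figure D1:**
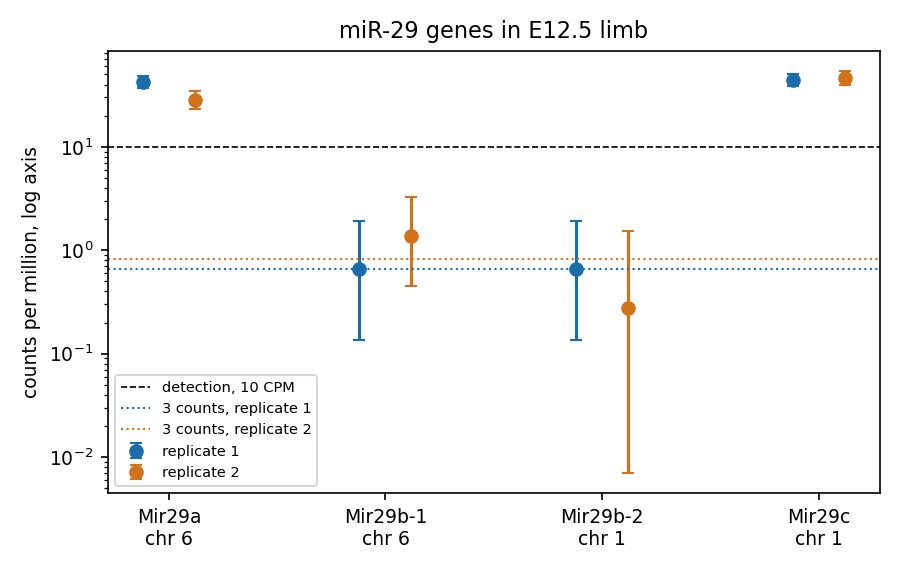
Level of each miR-29 gene in CPM on a log axis, 1 point per replicate with its 95% Clopper-Pearson interval, beside the detection line of 10 CPM and the level that 3 counts stand for. Mir29a and Mir29c lie between 28.3 and 46.6 CPM, and both Mir29b copies lie between 0.28 and 1.39 CPM.

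With detection set at 10 CPM or more in both libraries, 2 of the 4 members were detected, Mir29a and Mir29c, where 14.5% of all rows were. Together the 4 genes gave 398 counts in replicate 1 and 276 in replicate 2, which is 87.9 and 76.6 CPM, or 0.00823% ± 0.00080 of the counts (SD, n = 2). Mir29a and Mir29c made up 98.5% of the family's counts in replicate 1 and 97.8% in replicate 2. How well each sequence was recovered by the library preparation was not measured, so these are levels of reads, not of molecules. In whole limb, fewer cells that make a microRNA and less of it per cell cannot be told apart.

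By mean level Mir29c ranked 229th and Mir29a 242nd of all rows, in the lower part of the 286 detected genes, of which 57 lay below Mir29c and 44 below Mir29a. The median detected gene stood at 269 CPM, 5.91 times the level of Mir29c and 7.59 times that of Mir29a. Mir29c had Mir758 (46.2 ± 3.7 CPM) and Mir702 (46.1 ± 1.7 CPM) just above it and the heart and slow muscle microRNA Mir208b (45.3 ± 1.6 CPM) and the muscle microRNA Mir133b (45.1 ± 2.5 CPM) just below. All 4 neighbours were above Mir29c in replicate 1 and below it in replicate 2, so this order was not resolved. Around Mir29a stood Mir450-1 (37.2 ± 2.0 CPM), Mir222 (37.1 ± 3.7 CPM), Mir153 (33.3 ± 5.1 CPM) and Mir181b-1 (33.1 ± 9.1 CPM), and these means differed from that of Mir29a by less than its SD. Mir29b-1 held rank 448, and its pair of counts occurred in 4 genes in all. Mir29b-2 held rank 540, and its pair of counts occurred in 13 genes. Likeness of pattern was not measured beyond this, since 2 libraries allow none.

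**Figure D2:**
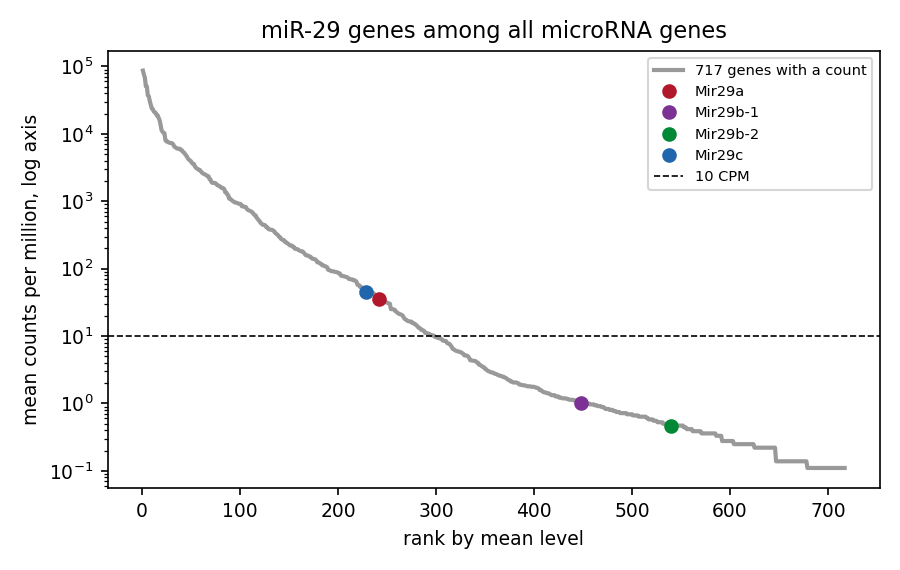
Mean level in CPM (log axis) against rank for the 717 genes with a count in either library, with the miR-29 genes marked. Mir29c and Mir29a sit at ranks 229 and 242, above the line at 10 CPM, and Mir29b-1 and Mir29b-2 at ranks 448 and 540, below it.

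Within each cluster the 2 hairpins gave very unequal counts. On chromosome 6 Mir29a exceeded Mir29b-1 by 64.0 times in replicate 1 (95% interval 21.6 to 313) and by 20.4 times in replicate 2 (8.46 to 64.2). On chromosome 1 Mir29c exceeded Mir29b-2 by 66.7 times in replicate 1 (22.5 to 326) and by 168 times in replicate 2 (29.7 to 6675). The intervals are wide because the copies gave 1 to 5 counts, but in both pairs and both libraries the lower bound lay far above equality. Between the clusters the balance was closer. Mir29a stood at 0.96 times Mir29c in replicate 1 (0.78 to 1.18), which is not told apart from equality, and at 0.61 times in replicate 2 (0.47 to 0.78). The chromosome 6 pair gave 195 and 107 counts against 203 and 169 from the chromosome 1 pair.

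These ratios compare reads that the authors' counting could assign to 1 gene, and that need not be the same fraction for each hairpin. Reads that mapped to several places were set apart in the deposited tables and held 2892656 reads in replicate 1 and 2310423 in replicate 2, 27.2% and 23.7% of all reads. Which microRNAs they came from is not given in the tables, so the assigned counts leave out any miR-29b-3p reads among them, and the size of that part was not tested. Every 20-base window of each member's hairpin was searched in the other 1004 hairpins of the RefSeq table. Mir29a shared 0 of 69 windows. Mir29b-1 shared 9 of 52 windows, with Mir29b-2 or Mir29c, and Mir29b-2 shared 6 of 62, with Mir29b-1. The shared windows of the copies cover the 3′ strand and leave the 5′ strand free. A read that lies wholly inside a shared stretch is found in more than 1 hairpin. No genome sequence was searched. A mature strand that also lies in another hairpin, beside one that does not, occurred in 50 genes of the RefSeq table with a row, both Mir29b copies among them, and 30 of the 50 (60.0%) were detected. Of the 831 genes in which no such strand was found 226 (27.2%) were detected, and of the 35 with only such strands 7 were. Median levels were 32.3 CPM in the 50, 0.55 CPM in the 831 and 0 CPM in the 35. The classes may hold unlike kinds of genes and may miss some shared strands. Whether a shared strand bears on detection was not tested.

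**Figure D3:**
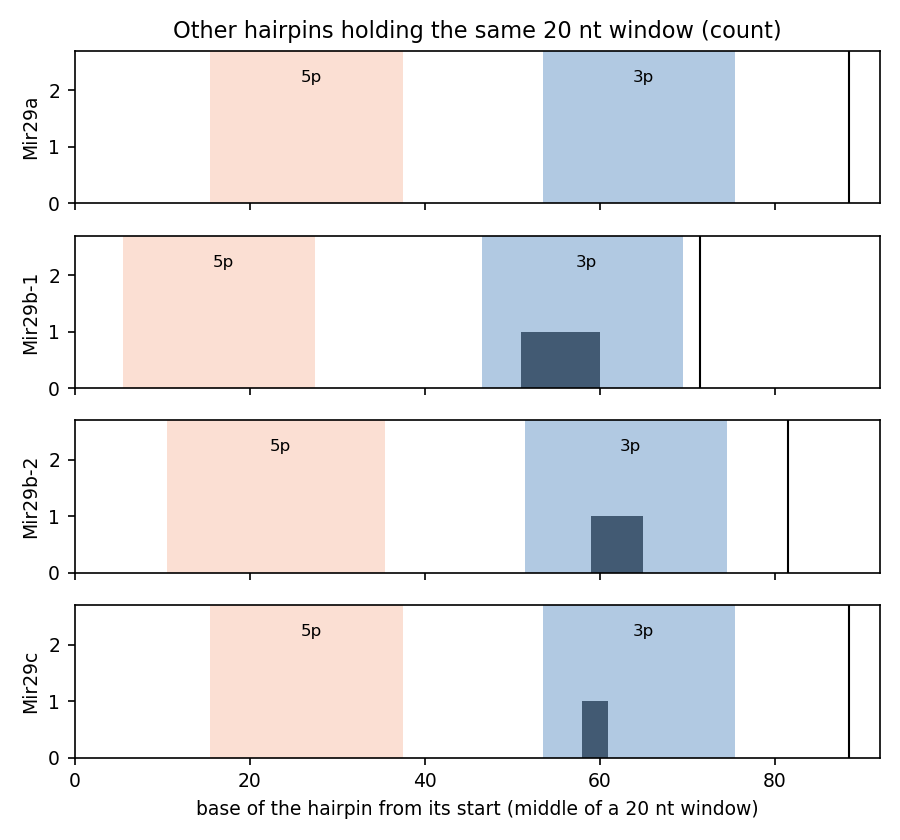
Number of other hairpins that hold the same 20-base window, by the position of the window's middle along each miR-29 hairpin, with the 5′ arm strand shaded orange and the 3′ arm strand blue, and a vertical line at the hairpin's end. Shared windows lie over the 3′ strand of Mir29b-1, Mir29b-2 and Mir29c, and Mir29a has none.

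Mir29c shared 3 of 69 windows, all with Mir29b-1. The shared stretch of 22 bases starts 5 bases before the mature 3′ strand and ends at its base 17, so a full-length strand of 22 bases is found in Mir29c alone. Read from its 5′ end, miR-29c-3p needed 18 bases to be found in no other hairpin and miR-29a-3p needed 10. By sequence, full-length 3′ strands of Mir29a and Mir29c could therefore be assigned and those of the miR-29b copies could not. Whether the aligner allowed mismatches, which matters for strands that differ at 1 base, is not given in the sources used here.

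Unequal neighbours were present in other clusters too. Neighbouring microRNA genes on 1 strand within 10000 bases formed 108 pairs in which the higher gene was detected. In 19 of them, besides the miR-29 pairs, exactly 1 gene had a mature strand that also lies in another hairpin, and that gene was the lower one in 17. The miR-29 pairs have this form too. The log2 ratio of higher to lower gene, with 0.5 counts added, was 5.0 for Mir29a over Mir29b-1 and 6.33 for Mir29c over Mir29b-2, and 12 and 7 of the 19 pairs lay above these values. The 19 include 2 pairs in which the gene with the shared strand was the higher one, at 9.52 and 6.31. The median of the 19 was 6.07, and that of the 17 pairs was 5.25. In 82 pairs in which no shared strand was found the median was 3.03. Values of the 82 reached from 0.0024 to 12.5. They include Mir100 over Mirlet7a-2 (7.08), although the other numbered copy Mirlet7a-1 was classed as having only shared strands. The classes may therefore miss some shared strands. The groups overlap widely, the pairs include several from the same clusters, and no test was made. For the 85 pairs with both genes detected, a rule that leaves out both miR-29 pairs, the median was 2.75.

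**Figure D4:**
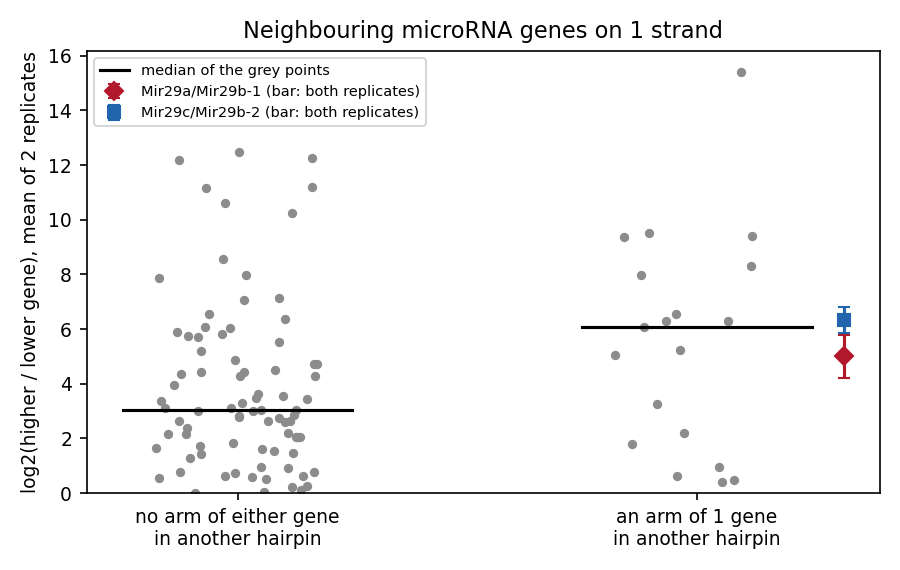
Log2 ratio of the higher to the lower gene in neighbouring microRNA pairs, 1 grey point per pair as the mean of both replicates, for pairs with no mature strand found in another hairpin and pairs in which 1 gene has such a strand, with the miR-29 pairs in colour (bars reach from one replicate to the other). The miR-29 pairs lie at 5.0 and 6.33, within the range of the grey points on both sides, whose medians are 3.03 and 6.07.

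Between the libraries Mir29a was the only member called. The log2 ratio of replicate 2 over replicate 1 was -0.58 for Mir29a (SE 0.18, counting error), with a Benjamini-Hochberg adjusted p of 0.00305 in a two-sided exact binomial test across the 436 genes whose libraries summed to at least 10 counts. For Mir29c it was 0.08 (SE 0.15), with an adjusted p of 0.747 in the same exact test. Mir29b-1 and Mir29b-2 had 8 and 4 counts in the sum and were not tested. This test allows for counting error only and speaks of these libraries. It called 41.7% of the genes tested, 21.3% as lower in replicate 2, so the call of 1 of 2 tested members lies near the background. In absolute size 97 of the 436 genes had a larger log2 ratio than Mir29a, and 369 had a larger one than Mir29c, against a median of 0.30. An edgeR negative binomial exact test with the dispersion of the same 2 libraries called 0 genes (0% of 436). In the edgeR test 25 genes had an unadjusted p under 0.05, and Mir29a had an adjusted p of 0.958. Its dispersion comes from the same difference that it tests, and in simulated libraries it recovered 0 of 192 changed genes. The 0 calls therefore do not show that genes were equal. The labels number the libraries as biological replicates from separate pools.

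**Figure D5:**
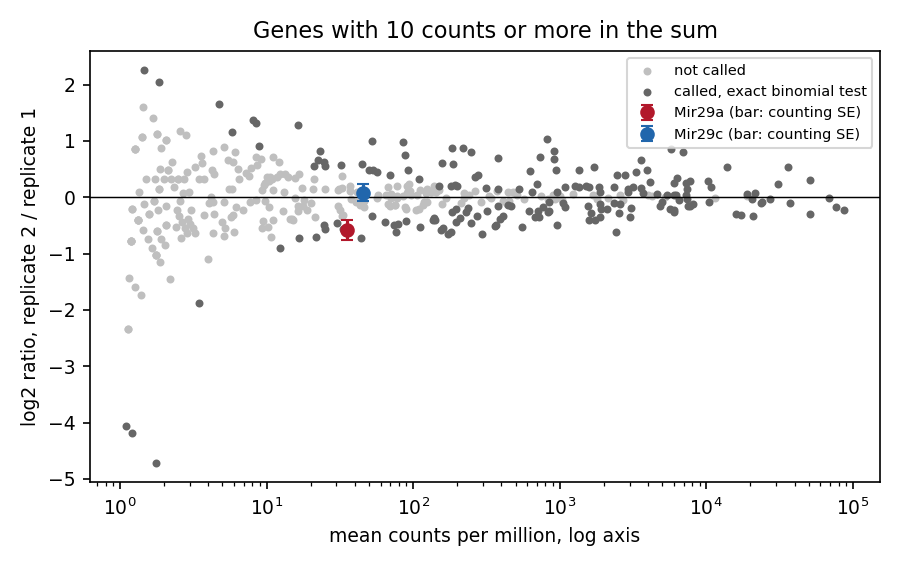
Log2 ratio of replicate 2 over replicate 1 against the mean level in CPM (log axis) for the 436 genes tested, dark where the exact binomial test called the gene. Mir29a lies at -0.58 and Mir29c at 0.08, with bars for the counting SE, both within the cloud of other genes.

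Beside other microRNAs known to act on matrix, fibrosis or the epithelial and mesenchymal states, the assigned levels of Mir29a and Mir29c lay below most. Of 40 such genes 39 had a row, and 32 of the 39 were detected (82.1%, against 14.5% of all rows), with a median of 144 CPM against 0 CPM over all rows. In both libraries 26 of the 39 stood above Mir29c. Mir21a, which rises in fibrosis of several organs, stood at 4806 ± 381 CPM, 106 times the mean of Mir29c. Mir30a, of a family that targets the matrix growth factor Ccn2, stood at 5666 ± 552 CPM, 125 times Mir29c. Mir101b, which acts on the methyltransferase Ezh2, stood at 1876 ± 102 CPM, 41.3 times Mir29c, and Mir101a at 144 ± 6.4 CPM, 3.17 times Mir29c. Mir133b, a muscle microRNA, stood at 45.1 ± 2.5 CPM, level with Mir29c. The 7 genes not detected were Mir7b and the numbered copies Mir26a-1, Mir129-1, Mir129-2, Mir7-2, Mir133a-1 and Mir133a-2. Other numbered copies of the list were detected, from Mir196a-2 at 1678 CPM to Mir218-1 at 11.9 CPM. How many reads of any of these genes mapped to several places was not tested.

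Collagen messenger RNAs were not measured, and the reference gives only where the seed of the family could pair. The 7-base match to the seed, TGGTGCT, was searched on the transcript strand of the 3′ untranslated region of the longest coding transcript of each gene. It lay in 21 of 27 collagen genes (77.8%), against 12.9% of 20989 protein-coding genes and 11.2% of the 5256 genes with a region between 806 and 1763 bases, the quartiles of the collagens. An A after the match, TGGTGCTA, was present in 15 of the 27 collagens and in 2.85% of all genes. The collagens were listed because the family is known for them, so this count describes the list and is no independent support. Examples from collagens of cartilage, bone and skin are shown on mm10 with the match in capitals:
Col1a1: gtgggaaggaatttcTGGTGCTa
Col2a1: gcgtgtcctacacaaTGGTGCTa
Col3a1: ttcaaaatgtctcaaTGGTGCTa
Col5a2: cttttcttttaatgaTGGTGCTa
The stretches lie on chromosome 11, 94952523 to 94952545, for Col1a1, the main bone and skin collagen, and on chromosome 15, 97975681 to 97975703, for Col2a1, the cartilage collagen. They lie on chromosome 1, 45348967 to 45348989, for Col3a1, and on chromosome 1, 45374965 to 45374987, for Col5a2, both partners of type I collagen fibrils. Col4a5 of basement membranes had 3 matches and Col5a1 had 4. Col1a2, Col6a1, Col10a1, Col11a2, Col12a1 and Col14a1 had 0. The matched letters are the same for miR-29a, miR-29b and miR-29c, and a match does not show that a site is used.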

How the data were processed

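Small RNA was sequenced from 2 pools of mouse embryonic limb. The authors deposited raw counts of reads for each microRNA gene, in total and by strand. The README of each library names mm10 and GENCODE M4. The sources used here give no aligner, counter, trimming or mismatch setting. The 4 rows that name no gene held 57.5% and 63.0% of the reads and stayed out of library totals. The strand column with most gene counts was taken as the gene's own strand and used, as CPM. Of 1973 identifiers 1894 matched GENCODE M21 without their version number, and 916 rows had a mature sequence in RefSeq, among them all 4 members. Libraries were compared by exact binomial tests with Benjamini-Hochberg adjustment at 0.05 (R 4.3.3), with TMM scaling and a negative binomial test in edgeR 4.0.16 and DESeq2 1.42.0 size factors as alternatives. In simulated libraries with 195 of 434 tested genes changed 2 or 4 times in either direction, with counting error only, the binomial test recovered 169 with 3 false calls. The negative binomial test, with the dispersion of the same 2 libraries, recovered 0 of 192, so its count of 0 does not show that genes were equal. With the dispersion of the simulation given, the negative binomial test recovered 141 of 192 with 6 false calls. The simulation was balanced between directions after a form with increases only gave false calls. That form, with the dispersion given, recovered 73 of 200 changed genes with 35 false calls. Intervals are 95% Clopper-Pearson (scipy 1.17.1).

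Members, gene lists and tests were chosen with earlier results of these data known. Genes named are the 4 members, genes with a member's seed, and examples from the fixed lists. Also named are the 2 genes ranked above and below Mir29a and Mir29c (ties at the Mir29b copies are counted). Mir100 and the let-7a copies are named for a limit of the pair classes. The comparison of pairs with the lower gene at any level was added after the data were seen.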

Additional observations from a re-analysis of the deposited data

How the results depend on the processing

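Of 78 alternative values, 65 were counted as unchanged. Ratios between the libraries had to keep their direction and side of the threshold. Counts had to stay within a fixed fold, and other values to move by no more than the SD. Some values could not fail these rules, so the 65 overstate what was tested. With 2 replicates, leaving 1 out always moves a mean by less than the SD. Ratios between members could not change with both strands, since no member had a count on the other strand. Ratios of the Mir29b copies between the libraries were judged by direction alone. Scaled to all placed reads, including those that mapped to several places, Mir29a stood at 19.6, Mir29c at 25.1 and the family at 45.6 per 1000000. At 100 CPM in both libraries 0 members and 20 genes of the matrix list were detected. The edgeR negative binomial test called 0 genes and 0 members between the libraries, with a log2 ratio of -0.57 for Mir29a. That test recovered 0 of 192 changed genes in simulation, so its 0 calls do not show that genes were equal. With windows of 24 bases, Mir29b-1 and Mir29b-2 shared 2 windows each and Mir29c 0, and with 18 bases Mir29c shared 5. Without replicate 1 or 2, Mir29a ranged from 28.3 to 42.4 CPM, Mir29c from 44.2 to 46.6, Mir29b-1 from 0.66 to 1.39, Mir29b-2 from 0.28 to 0.66 and the log2 ratio of Mir29a to Mir29c from -0.72 to -0.06. With the lower gene at any level, a setting chosen after seeing the data, the median log2 ratio of neighbouring pairs was 3.32. No paired analysis was possible because both libraries belong to 1 group. At 1 to 5 counts, depth allows no order among the miR-29b copies.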

Other observations

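Genes other than collagens were listed as matrix genes and textbook targets of the family, so their matches describe the list and are no independent support. In the longest transcript's 3′ untranslated region, 14 of these 17 genes (82.4%) had the 7-base match, against 12.9% of all protein-coding genes, and Bmp1, Serpinh1 and Sparc had 0. The regions of the list were longer, with a median of 2353 bases against 935 over all genes. Tet3 had 8 matches, Tet1 had 7, and Tet2 and Dnmt3a had 5 each, and Dnmt3b had 1. Among regions within 10% of the same length, the share with any match was 40.2% for Tet3, 49.0% for Tet1, 27.1% for Tet2, 48.0% for Dnmt3a and 13.1% for Dnmt3b. Eln, the elastin gene, had 3 matches in 1188 bases, where 11.3% of regions of similar length had any.

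The 5′ strands of Mir29b-1 and Mir29b-2 had different seeds. The seed of Mir29b-2 was shared with 1 other gene, Mir6338, which had 0 counts in both libraries.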
